A study of Ovis aries with 36 samples.

Results

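The difference between sexually active and not active rams was measured here as 1 value per gene and animal, averaged with equal weight over 3 tissues, which were hypothalamus, pars tuberalis and pineal gland. All 36 of the 36 libraries entered it. They came from 12 adult rams of the Rasa Aragonesa breed, a Spanish meat sheep, with 1 library per tissue and ram. Rams 1 to 6 were labelled active and rams 7 to 12 not active in sexual behaviour, and the ram was the replicate (6 against 6). For each gene the log2 of counts per 1000000 counts (CPM) was taken in every library, the mean of each tissue over the 12 rams was removed, and the 3 values of a ram were averaged. The mean of the 3 tissue means was added back, so a value reads as a level in log2 CPM. No group received a treatment in the labels. How behaviour was scored, the season, and the time of day of sampling are not stated in the labels.

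The 3 tissues form a chain in the seasonal control of reproduction in sheep. The pineal gland makes melatonin at night, the pars tuberalis of the pituitary carries melatonin receptors and relays day length, and the hypothalamus houses the neurons that release gonadotropin-releasing hormone and those that organise mating behaviour. An average over the 3 measures the mean difference with behaviour over this chain, and gives less weight to what differed in 1 tissue alone. A large difference in 1 tissue can still move it. Genes are given by Ensembl sheep ID, because the count table holds no names and 0 of 26478 IDs matched a symbol in the reference table. The functions of the genes below are therefore not stated, and neither pathways nor the markers that define each tissue could be checked by name.

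Library totals ran from 19251952 to 44283825 counts for hypothalamus, from 22556623 to 35440028 for pars tuberalis and from 25242937 to 72951491 for pineal gland. Of the genes restricted to 1 tissue in these libraries (a median of 20 CPM or more, and 50 times or more above the medians elsewhere), 43 belonged to the pars tuberalis, 35 to the hypothalamus and 69 to the pineal gland. A pair of libraries stood apart in these genes. Pars tuberalis genes reached 17.1% of their own-tissue level in the hypothalamus library of active ram 4, against 1.99% in the next hypothalamus library. Hypothalamus genes reached 8.95% in the pineal library of not active ram 10, against 1.57% in the next.

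No gene was called when the tissues were averaged. Of 16773 tested genes, limma called 0 (0%) after Benjamini-Hochberg adjustment at a threshold of 0.05, and the lowest adjusted p was 0.718. At an unadjusted p under 0.05 there were 669 genes (3.99%), with 325 higher (1.94%) and 344 lower (2.05%) in the active state. The share of 3.99% is below the 0.05 expected where no gene differs. The median difference over all genes was 0.0064 on the log2 scale, and the median of its absolute size was 0.10. Genes that were higher in active rams numbered 8657 and genes that were lower 8116. Other fits of the same average gave other counts. EdgeR's quasi-likelihood test on the 36 libraries, which takes the 3 libraries of a ram as separate samples, called 15 genes (8 higher, 7 lower). DESeq2 on the same libraries called 59 (28 higher, 31 lower). Ram 4 had the highest hypothalamic level for 2 of the 15 and 10 of the 59. That share was not counted over all tested genes. In averaged values, ram 4 was highest for 13.7% of tested genes. These fits were not repeated without the library of ram 4. Voom with the ram as a random block called 2.

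**Figure D1:**
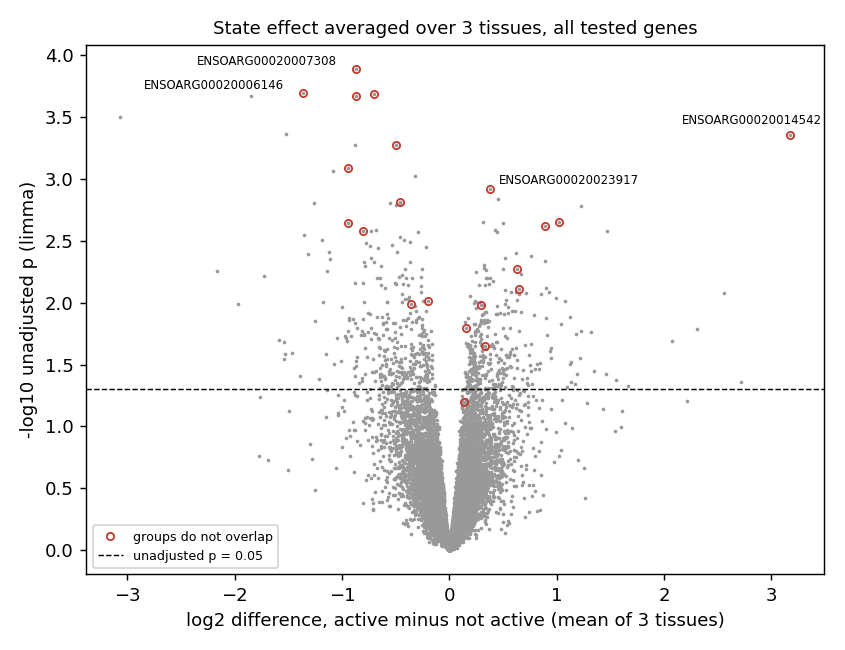
Each point is 1 of the 16773 tested genes, with the log2 difference between active and not active rams (mean of 3 tissues) on the horizontal axis and -log10 of the unadjusted limma p on the vertical axis. Red circles mark the 21 genes whose groups did not overlap, fewer than expected where no gene differs. The 4 labelled IDs are those with the lowest p in each direction.

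ENSOARG00020007308 had the lowest p of all tested genes and was lower in active rams. Its averaged level ran from 1.30 log2 CPM in ram 1 to 1.85 in ram 4 among active rams, with a median of 1.70. Among not active rams it ran from 1.96 in ram 9 to 2.79 in ram 8, with a median of 2.64. Every active ram lay below every not active ram, and the gap between the groups was narrow because of ram 9. The difference was -0.87 on the log2 scale (SE 0.17, 95% interval -1.23 to -0.51), which is 1.83-fold lower. The adjusted p was 0.718 in limma after Benjamini-Hochberg adjustment, so this difference did not pass the threshold. The exact two-sided permutation p over the 12 rams was 0.00216, which is the smallest that 6 against 6 can give, for an ID picked by its p out of the whole table. The same limit holds for this permutation p in the other IDs below, which were picked in the same way.

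The lower level of ENSOARG00020007308 was spread over the tissues. The difference was -1.09 for hypothalamus (SE 0.47), -0.65 for pars tuberalis (SE 0.36) and -0.87 for pineal gland (SE 0.33), all on the log2 scale. In the hypothalamus active rams ran from 1.16 to 10.2 CPM with a median of 1.81, and not active rams from 3.47 to 8.07 CPM with a median of 4.96. The highest active value, 10.2 CPM, was that of ram 4, whose library held pars tuberalis genes at 17.1%, and the next active ram had 3.28 CPM. This ID had a median of 8.38 CPM in the pars tuberalis and 3.57 in the hypothalamus. Without that library the averaged difference was -1.02. In the pars tuberalis active rams ran from 2.57 to 9.35 CPM (median 5.91) and not active rams from 3.59 to 12.7 CPM (median 9.40). Pineal levels ran from 1.19 to 3.83 CPM in active rams (median 2.30) and from 1.97 to 6.14 CPM in not active rams (median 4.30). The groups overlapped in each tissue taken alone, and also in the average when any 1 of the 3 tissues was left out.

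ENSOARG00020006146 had the second lowest p and was also lower in active rams. Active rams had averaged levels from 0.16 log2 CPM in ram 5 to 1.16 in ram 1, with a median of 0.72. Not active rams had levels from 1.33 in ram 9 to 2.69 in ram 8, with a median of 2.08. The groups did not overlap. The difference was -1.36 on the log2 scale (SE 0.27, 95% interval -1.95 to -0.78), 2.57-fold lower, with an adjusted p of 0.718 in limma after Benjamini-Hochberg adjustment and an exact two-sided permutation p of 0.00216.

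By tissue, ENSOARG00020006146 differed most in the hypothalamus, by -1.99 (SE 0.68), then by -1.24 (SE 0.76) for pars tuberalis and -0.86 (SE 0.54) for pineal gland, on the log2 scale. Hypothalamic levels ran from 0.376 to 2.34 CPM in active rams (median 0.875) and from 1.16 to 20.3 CPM in not active rams (median 3.92). The top value belonged to not active ram 10, and the next was 7.13 CPM. Pineal levels were the highest of the 3 tissues, from 1.10 to 13.9 CPM in active rams (median 4.59) and from 4.23 to 14.7 CPM in not active rams (median 7.41). In the pars tuberalis 4 of the 6 active rams had less than 1 CPM, with a range of 0.348 to 3.75 CPM (median 0.610), while not active rams ran from 0.380 to 7.74 CPM (median 2.54). Single tissues again overlapped. With the hypothalamus left out of the average the difference was -1.05. The groups overlapped when any 1 of the 3 tissues was left out, and also with the median of the tissues in place of the mean.

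ENSOARG00020014542 had the largest positive difference of all tested genes and the lowest p among those higher in active rams. Its averaged level ran from 3.34 log2 CPM in ram 2 to 8.14 in ram 6 among active rams (median 4.69), and from 0.14 in ram 7 to 2.92 in ram 9 among not active rams (median 2.18). The groups were apart, and active ram 6 stood above the other active rams, of which the highest was ram 5 at 5.86. The difference was 3.17 on the log2 scale (SE 0.69, 95% interval 1.68 to 4.66). The adjusted p was 0.898 in limma after Benjamini-Hochberg adjustment, and the exact two-sided permutation p was 0.00216. Without ram 6 the difference was 2.58.

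This ID was mainly a pars tuberalis transcript, with tissue medians of 260 CPM there, 8.99 CPM in hypothalamus and 0.819 CPM in pineal gland, and its difference came from the tissues where it was low. In the pars tuberalis active rams ran from 119 to 1178 CPM (median 393) and not active rams from 7.71 to 1129 CPM (median 235), a log2 difference of 0.87 (SE 1.04) with wide overlap. In the hypothalamus the difference was 5.08 (SE 1.77). There, active rams ran from 0.188 to 1334 CPM (median 42.0) and not active rams from 0 to 10.5 CPM (median 0.707). The value of 1334 CPM in active ram 6 was above every pars tuberalis library, and the next active ram had 65.1 CPM. In the same library the pars tuberalis-restricted genes stood at 1.34% of their own-tissue level. Pineal levels ran from 0.396 to 118 CPM in active rams (median 2.71), ram 6 again highest, and from 0.0205 to 4.46 CPM in not active rams (median 0.236), a log2 difference of 3.56 (SE 1.25). Without the hypothalamus library of ram 4 the averaged difference was 2.93 and the groups overlapped, as they did when any 1 of the tissues was left out of the average. The part of pars tuberalis RNA in these values was not tested. In tissue pieces such as these, fewer cells of a type and less RNA per cell cannot be told apart.

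ENSOARG00020023917 was higher in active rams by a small amount with little spread. Averaged levels ran from 4.58 log2 CPM in ram 6 to 4.85 in ram 4 among active rams (median 4.66), and from 4.01 in ram 7 to 4.49 in ram 12 among not active rams (median 4.37). Every active ram lay above every not active ram. The difference was 0.38 on the log2 scale (SE 0.094, 95% interval 0.18 to 0.58), 1.30-fold, with an adjusted p of 0.961 in limma after Benjamini-Hochberg adjustment and an exact two-sided permutation p of 0.00216.

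The hypothalamus supplied 81.7% of the summed difference of ENSOARG00020023917. Its hypothalamic level ran from 8.54 to 15.8 CPM in active rams (median 11.2) and from 3.01 to 8.91 CPM in not active rams (median 7.24), a log2 difference of 0.93 (SE 0.28). The lowest active ram, at 8.54 CPM, lay within the not active range. The highest active value, 15.8 CPM, was that of ram 4, whose hypothalamus library held pars tuberalis genes at 17.1%. This ID had a median of 46.8 CPM in the pars tuberalis and 8.77 in the hypothalamus. Without ram 4 the averaged difference was 0.35 and the groups were still apart. The part of pars tuberalis RNA in the hypothalamic values was not tested. In the pars tuberalis the groups were level, at 40.7 to 51.1 CPM (median 47.5) and 43.9 to 48.8 CPM (median 46.5), a log2 difference of -0.014 (SE 0.087). The pineal gland gave 26.0 to 38.6 CPM in active rams (median 31.5) and 21.3 to 41.5 CPM in not active rams (median 25.7), a log2 difference of 0.22 (SE 0.15). Without the hypothalamus in the average the difference was 0.10. The groups overlapped without the hypothalamus, without the pineal gland and with the median of the tissues, and were apart without the pars tuberalis.

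**Figure D2:**
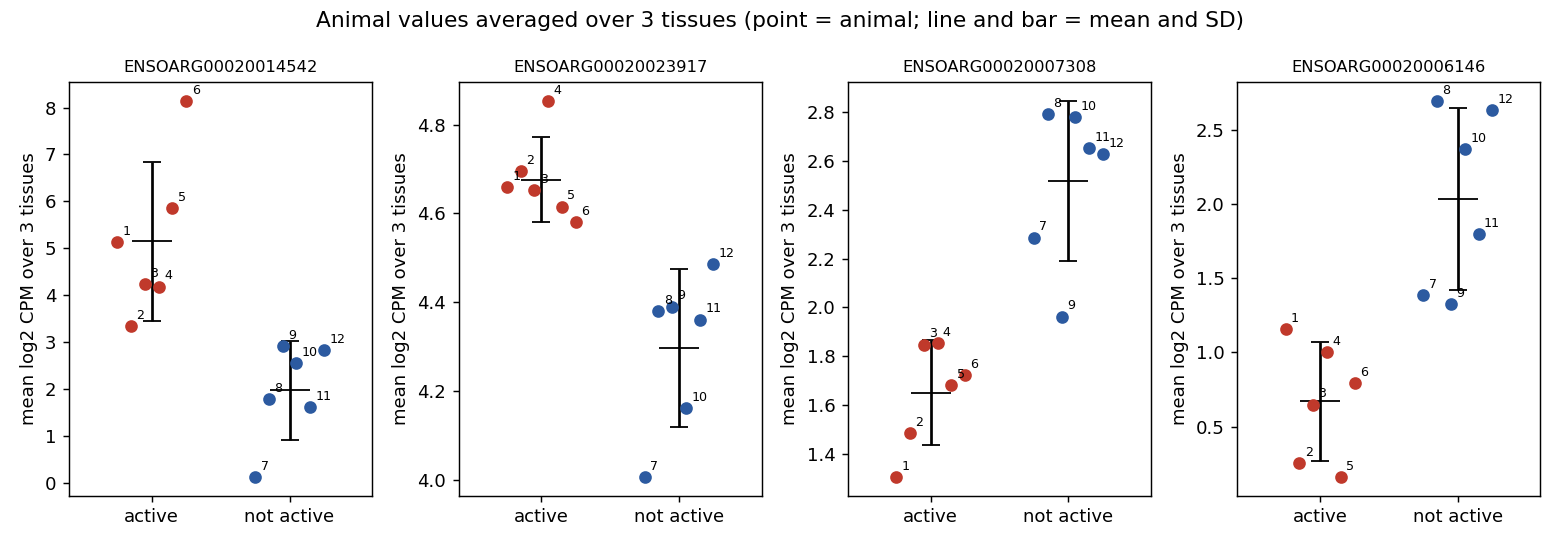
Levels of the 4 IDs averaged over 3 tissues (mean log2 CPM, vertical axis) in 6 active and 6 not active rams. Each point is a ram with its number, the line is the group mean and the bar its SD. In all 4 panels the groups do not overlap, for IDs picked by their p on these values.

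**Figure D3:**
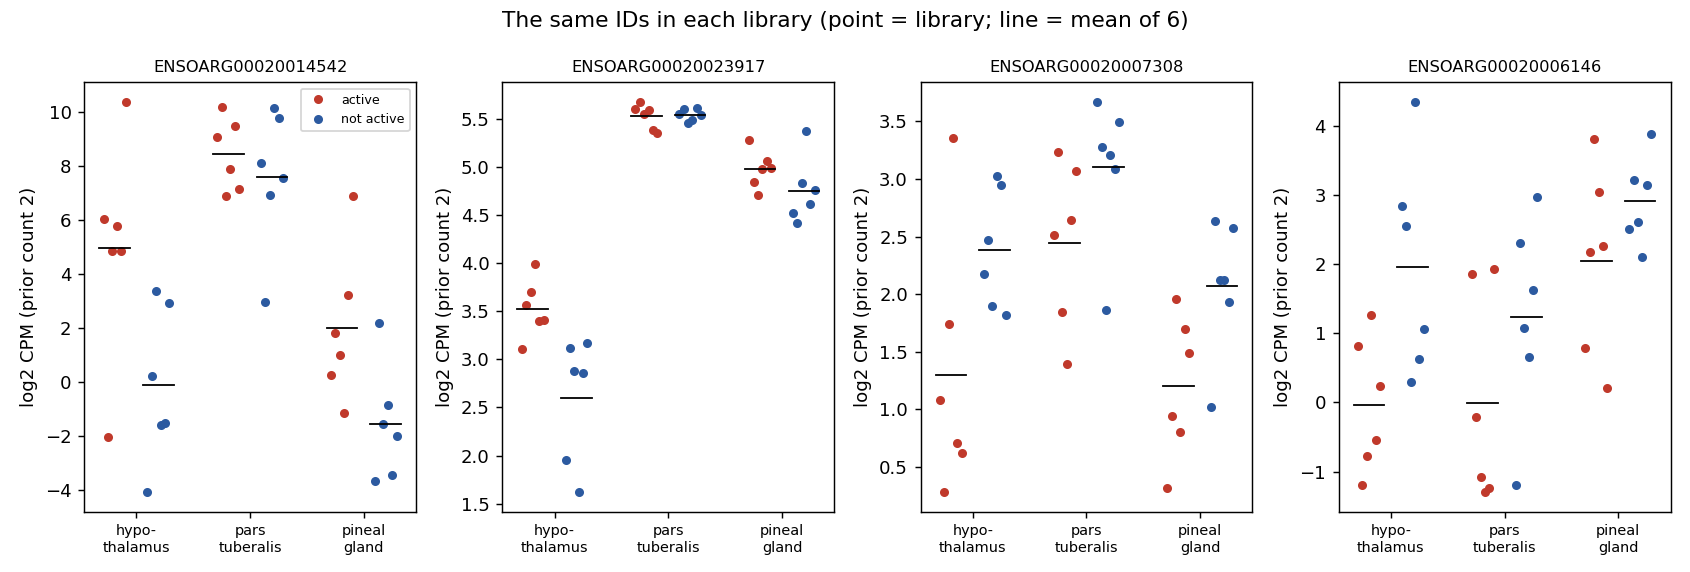
The same IDs in every library (log2 CPM with a prior count of 2, vertical axis), by tissue and state, with 6 libraries per group and a line at the group mean. Each tissue shows overlap between red (active) and blue (not active) points for every ID, and the vertical axes differ between panels.

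Groups that do not overlap were few. Over all tested genes, 21 (0.125%) had averaged values without overlap, 10 higher (0.0596%) and 11 lower (0.0656%) in active rams. The rate expected where no gene differs is 0.00216, the smallest exact two-sided permutation p. The share of 0.125% is below it, so the 21 genes are no excess. Of the 21, 18 overlapped in each tissue taken alone, while 3 were also apart in hypothalamus, 1 in pineal gland and 0 in pars tuberalis. All 11 lower genes had a negative difference in each of the 3 tissues, and 8 of the 10 higher genes had a positive one in each. Because the genes were picked by the mean of the 3 tissue values, this agreement in sign is largely built in. The share over all tested genes was not counted. The 11 lower genes had absolute log2 differences from 0.20 to 1.36 and a median difference of -0.81, and the 10 higher genes had a median of 0.51. The lowest adjusted p among the 21 was 0.718. In single tissues the groups were apart for 19 of 16773 genes in hypothalamus, 15 in pars tuberalis and 9 in pineal gland. Each count is smaller than the 21 of the average, and so also below the rate expected where no gene differs.

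Differences beyond 2-fold in the average were found for 83 genes, 39 higher and 44 lower in active rams, and most of these genes were weakly expressed. Of the 39, 31 were in the lower tercile of tested genes by level, and of the 44, 39 were. The groups were apart for 2 of the 39 and 1 of the 44. The ram with the highest value among the 39 higher genes was most often ram 4 (9 genes) or ram 2 (8 genes). Among the 44 lower genes it was ram 12 for 13, ram 7 for 9 and ram 10 for 8. Over all tested genes the highest value was that of ram 4 for 13.7% and of ram 2 for 9.80%. For rams 12, 7 and 10 the shares were 6.64%, 11.0% and 11.3%. Because the genes were picked by the state difference, a top ram from the higher state is largely built in. The largest of the 3 tissue differences was that of the hypothalamus for 17 of the 39, of the pars tuberalis for 14 and of the pineal gland for 8. For the 44 lower genes these numbers were 18, 18 and 8. The share over all tested genes was not counted. Over all tested genes the median absolute log2 difference was 0.16 for hypothalamus, 0.15 for pars tuberalis and 0.098 for pineal gland. The numbers above therefore do not set these genes apart from the rest.

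Gene classes defined by tissue, and not by state, showed where the average moved. The 43 pars tuberalis-restricted genes had a median difference of 0.46 on the log2 scale, with 39 of 43 higher in active rams, beside 51.6% of all tested genes and a median of 0.0064 over all. None was called, and 11 (25.6%) had an unadjusted p under 0.05, all higher, beside 1.94% of all genes. That count was 1 with the median of the 3 tissues and with sums of thinned libraries, 18 in edgeR and 23 in DESeq2 on 36 libraries, 5 in voom with the ram as a block, and 9 without the hypothalamus library of ram 4. Their median difference was 1.26 over hypothalamus libraries, 0.14 over pars tuberalis and 0.19 over pineal libraries, so most of it lay in a tissue where they were scarce. Without the hypothalamus library of ram 4, 32 of 43 were higher and the median was 0.26. With the hypothalamus left out the figures were 26 of 43 and 0.12. For the level of these genes in the other tissues, the active minus not active difference was 0.82 on the log2 percent scale, with an exact two-sided permutation p of 0.214 (adjusted p 0.946 over 11 values). Without ram 4 this difference was 0.34, with an exact two-sided permutation p of 0.442.

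The 35 hypothalamus-restricted genes had a median difference of -0.16, with 28 of 35 lower in active rams and 0 at an unadjusted p under 0.05. Not active ram 10 held these genes at 207% of the tissue median in its hypothalamus library, the highest of 12, and at 8.95% in its pineal library. Without that pineal library 16 of 35 were lower and the median was 0.058, and without ram 10 altogether 11 of 35 were lower and the median was 0.13, on the other side of 0. The 69 pineal-restricted genes had a median of -0.038, with 29 higher and 40 lower, and 1 at an unadjusted p under 0.05. Genes even across the 3 tissues, with tissue means within 1.5-fold of each other, numbered 4487. They had a median of 0.0038, and 49 higher and 63 lower genes (2.50%) had an unadjusted p under 0.05. By level, 4.78% of the lower tercile, 3.47% of the middle and 3.72% of the upper had an unadjusted p under 0.05.

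Averaging made the comparison more precise than any tissue alone. The median standard error of the log2 difference was 0.14 for the average, against 0.25 for hypothalamus, 0.21 for pars tuberalis and 0.19 for pineal gland by the same method. The 95% interval of the averaged difference left out a 2-fold change in either direction for 15594 of 16773 genes (93.0%), compared with 69.9%, 78.0% and 83.1% in the 3 tissues in that order. It left out a 1.5-fold change for 11898 genes (70.9%). The spread between rams of 1 state had a median SD of 0.25 for the average, 0.44 for hypothalamus, 0.38 for pars tuberalis and 0.32 for pineal gland. It was a median of 1.08 times what 3 unrelated tissue values would give. The ratio was above 1 for 68.2% of genes, so the 3 libraries of a ram deviated together to a small degree.

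An average can hide opposite effects, and the test of equal effects in the 3 tissues, with the ram as a block, called 0 of 16773 genes by limma (0%). At an unadjusted p under 0.05 it had 363 genes (2.16%), and edgeR's quasi-likelihood test with the same block called 0 (340 at an unadjusted p under 0.05). The share of 2.16% is below the 0.05 expected where no gene differs. The count of 363 was 219 without ram 10, 834 without ram 8 and 631 with no filter on low counts. For ENSOARG00020023917 the unadjusted p of this test was 0.0115 and the adjusted p 0.9996. The adjusted p was the same for the other 3 IDs, in limma after Benjamini-Hochberg adjustment. Their unadjusted values were 0.167 for ENSOARG00020014542, 0.789 for ENSOARG00020007308 and 0.589 for ENSOARG00020006146.

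The rams also differed from each other within a state. The first principal component of the 12 averaged profiles held 23.2% of the variance and placed active ram 6 at 45.8 and active ram 4 at -35.1, with the not active rams between -27.3 and 22.2. The second held 12.8% and placed not active rams 7 and 10 at -34.6 and -33.9, with the other 10 rams between -4.8 and 17.1. Ram 6 had a high first score in each tissue, at 58.9 for hypothalamus, 32.2 for pars tuberalis and 46.4 for pineal gland. In single tissues, ram 12 had 54.4 for hypothalamus and ram 7 had 83.2 for pars tuberalis. Rams 6 and 12 had the smallest hypothalamus libraries (19251952 and 19769684 counts), while the pineal library of ram 6 held 45258059. A part of depth in these scores was not tested. The difference between the states had an exact two-sided permutation p of 0.4 for the first score and 0.0823 for the second (adjusted p 0.946 and 0.905 over 11 values). Both depended on which rams were included. When a ram was left out, components were computed anew from the remaining rams and matched by rank and sign. A component may therefore be another axis there. The difference in the first score was -11.9 with all rams, -4.08 without ram 4 and -27.2 without ram 6, where its exact permutation p was 0.0281 (adjusted p 0.31). That in the second score was 17.3 with all rams and 4.52 without ram 10, and its exact permutation p was 0.0325 without ram 8 and likewise without ram 9 (adjusted p 0.357 in both). Scores on the first 5 components, depth, number of genes with a count, the share of the 10 most abundant genes and the level of tissue-restricted genes elsewhere made up the 11 values, and none passed after adjustment.

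**Figure D4:**
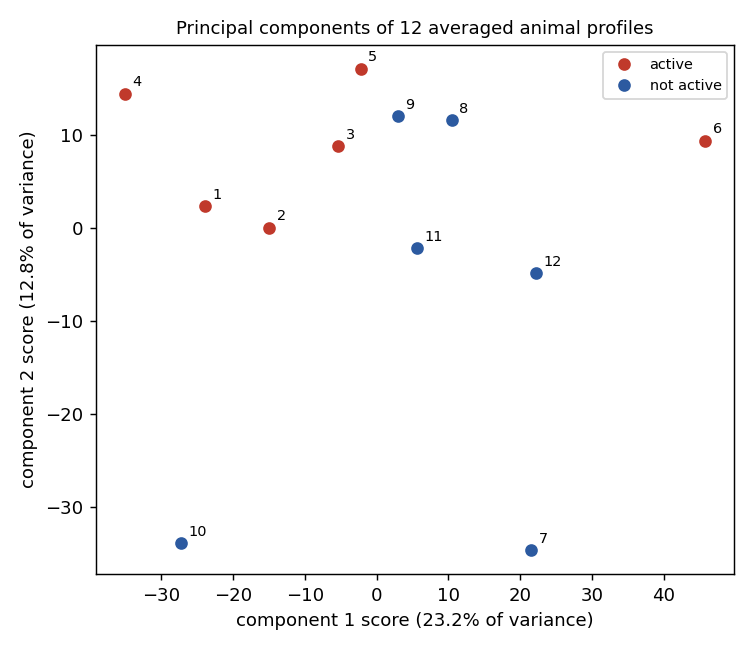
Scores of the 12 averaged animal profiles on the first (23.2% of variance, horizontal) and second (12.8%, vertical) principal components. Red points are active and blue points not active rams with their numbers; ram 6 lies far right and rams 7 and 10 lie at the bottom.

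Active ram 6 held the highest or the lowest averaged value for 34.1% of tested genes, followed by ram 4 at 25.2% and ram 10 at 21.8%, while ram 5 did so for 7.99%. Leaving out ram 6 moved the counts of genes at an unadjusted p under 0.05 and of genes without overlap more than leaving out any other ram. Genes at an unadjusted p under 0.05 then numbered 2242 of 16851 (1130 higher, 1112 lower), where leaving out any other ram gave 515 to 788. With all rams they were 669 of 16773 (3.99%). The share without ram 6 is above the 0.05 expected where no gene differs, and the shares without any other ram are below it. These 2242 included 572 of the 669 found with all rams (85.5% of that list, and 25.5% of the longer one). Groups did not overlap for 182 genes, 80 of them lower in active rams, against 33 to 54 when another ram was left out. Values of 11 rams part more easily than values of 12, so the counts with a ram left out compare with each other and not with 21. The rate expected for 11 rams was not computed. The adjusted threshold was passed by 1 gene without ram 6, and by 1 other gene, ENSOARG00020016201, without ram 9. Without ram 6 it was ENSOARG00020026084, and both IDs are named here after their values were seen. The difference of ENSOARG00020026084 without ram 6 was -0.55 (adjusted p 0.0359 in limma after Benjamini-Hochberg adjustment), and with all rams it was -0.40 (SE 0.14, adjusted p 0.961). The labels describe ram 6 as the other active rams, and what sets it apart was not tested.

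**Figure D5:**
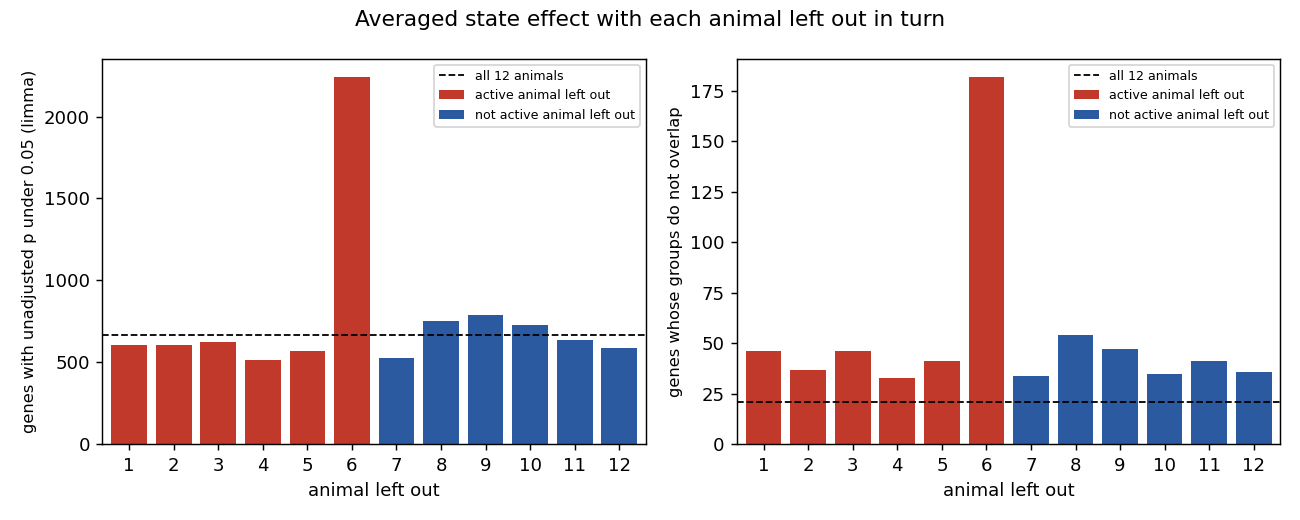
Number of genes at an unadjusted limma p under 0.05 (left) and of genes whose groups do not overlap (right) when each of the 12 rams is left out, coloured by the state of that ram. The dashed lines give the values with all rams, 669 and 21; the bars for ram 6 stand at 2242 and 182.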

How the data were processed

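RNA of 36 libraries (6 in each of 6 groups) was sequenced as stranded messenger RNA libraries, per the labels' protocols. The authors deposited raw counts per gene for 26478 Ensembl IDs, of which 3860 had no count. FastQC, STAR 2.7.8a, HTSeq and edgeR are named in the submitters' processing notes; build, annotation, strand setting and use of molecular identifiers: not given in the sources used here. Overlapping genes and near-identical copies are therefore uncertain. Every column matched 1 labelled sample. Chi-square per degree of freedom was at least 26.1 over 630 pairs of libraries, so no library was a copy of another.

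In R 4.3.3, genes were filtered by edgeR 4.0.16 (filterByExpr, minimum count 10), which left 16773 and removed 9705. Log2 CPM used trimmed mean of M values (TMM) scaling and a prior count of 2, so fold changes of low genes are understated. Averaged values were tested by limma 3.58.1 with trend and robust moderation, two-sided, since a log2 average is no count. Per-animal values were tested by exact permutation of the 924 splits. Scripts were tested on simulated data. Labels give the 3 libraries of a ram 1 number, which pairs them; deviations from group means correlated between tissues of a ram at medians of 0.023, 0.12 and 0.19 over 11983 genes with a mean above 5 CPM. DESeq2 1.42.0 and other settings were alternatives.

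With IDs only, the rule named the lowest p values, 2 in each direction. Lists of gene symbols were not used here. Gene classes, tests and samples were chosen with earlier results of these data known.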

Additional observations from a re-analysis of the deposited data

Results flagged for a closer look

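A ram far from the other 5 of its group, by Dixon's criterion, appeared in 6 of 54 groups of values checked. All 6 were levels in a single tissue, and none was an averaged level or a score per ram. Single-tissue levels were checked in CPM and averaged levels on the log2 scale, so their flags cannot be compared. The rate of about 1 in 20 by chance holds for normally distributed values, and CPM values with a few high rams are skewed. For ENSOARG00020014542, active ram 6 had 1334 CPM in the hypothalamus, where the next active ram had 65.1, and 118 CPM in the pineal gland, where the next had 9.39. Not active ram 8 had 4.46 CPM of the same ID in the pineal gland, and the next not active ram had 0.491. ENSOARG00020007308 stood at 10.2 CPM in the hypothalamus of active ram 4, against 3.28 in the next. For ENSOARG00020006146 not active ram 10 had 20.3 CPM in the hypothalamus, against 7.13. The pineal library of ram 10 held ENSOARG00020023917 at 41.5 CPM, against 28.4 in the next not active ram.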

How the results depend on the processing

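Over 31 alternatives the averaged state effect called 0 genes in 25, among them every change of scaling, prior count, filter and tissue weighting, each tissue left out, edgeR on sums of thinned libraries, and the fits without the hypothalamus library of ram 4 or the pineal library of ram 10 (both added after seeing the data). Leaving out each ram gave 0 to 1 genes. The 1 came without ram 6 (ENSOARG00020026084) and without ram 9 (ENSOARG00020016201, at -1.87 on the log2 scale with an adjusted p of 0.00165 in limma after Benjamini-Hochberg adjustment, against -1.52 and 0.898 with all rams). Voom with the animal as a replicate block called 2 genes, ENSOARG00020006897 (1.51, adjusted p 0.0391) and ENSOARG00020025432 (-2.78, adjusted p 0.0307). Without the replicate block, edgeR called 15 and DESeq2 59. DESeq2 on thinned sums called 5, all lower in active rams, led by ENSOARG00020010269 (-0.82, adjusted p 9.55e-11) and ENSOARG00020025419 (-4.60, adjusted p 0.000929). IDs named in this paragraph were chosen after their values were seen. In the average with all rams the lowest adjusted p among edgeR's 15, DESeq2's 59 and the other called sets was 0.718. The cause was not tested.

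The 4 leading IDs kept their direction in all 31 alternatives. Log2 differences ran from 0.75 to 4.32 for ENSOARG00020014542, 0.10 to 0.58 for ENSOARG00020023917, -1.02 to -0.67 for ENSOARG00020007308 and -1.62 to -1.05 for ENSOARG00020006146. The only pass was ENSOARG00020014542 by DESeq2 on 36 libraries (adjusted p 0.00102, range over alternatives 0.00102 to 1). The test of equal effects called 2 genes without a filter (ENSOARG00020007997 and ENSOARG00020008814, with 163 and 67 counts in all), 0 to 1 with a ram left out (ENSOARG00020016892 without ram 8) and 0 otherwise. None of the 11 values per animal passed under any alternative. Leaving out a ram moved the state difference across 0 for genes with a count (-19.2 to 58.1), hypothalamus genes elsewhere (-0.30 to 0.27) and pineal genes elsewhere (-0.058 to 0.059). It ran from -3.23 to 0.98 for component 3, -9.08 to 14.3 for component 4 and -16.6 to 14.1 for component 5. Components were computed anew from the remaining rams and matched by rank and sign, so these ranges may mix different axes. With 6 rams per state, the intervals given hold for 1 gene at a time and are not adjusted for the number of genes tested. All 4 leading IDs had intervals that left out 0, and none passed the adjusted threshold in limma with all rams. The intervals therefore do not mark the smallest difference that could pass, which was not computed.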

Other observations

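Plain sums over the 3 libraries of a ram do not weight the tissues equally. The pineal gland made up 26.8% to 52.3% of a ram's counts (median 45.6%), the hypothalamus 20.3% to 44.0% (median 26.3%) and the pars tuberalis 24.0% to 33.8% (median 28.3%). With every library thinned to 19251952 counts, a sum still weights each tissue by the gene's level there. For ENSOARG00020014542, which is mainly a pars tuberalis transcript, the log2 difference was 0.76 in edgeR's test of thinned sums and 3.17 in the equal average. For ENSOARG00020007308, whose levels are closer between tissues, the corresponding values were -0.67 and -0.87. ENSOARG00020023917 had 0.12 and 0.38.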
